A study of Arachis hypogaea with 15 samples.

Results

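The homeotic protein knotted-1-like genes of cultivated peanut (Arachis hypogaea) are 5 genes of the class I KNOTTED1-like homeobox (KNOX) type. They are all the genes whose product name in the authors' table contains the words homeotic protein knotted-1, out of 58256 genes left after rows that repeat a chromosome and start were dropped from 59878. The choice used names only and no expression value, but it was made with earlier results of these data known. RNA sequencing gave 15 libraries in 5 groups of 3 biological replicates, per the design text. Mutant libraries come from the shoot apex of plants with pentafoliate defects (leaves of altered leaflet number), and the labels name no gene for the mutation. Wild-type (WT) libraries come from shoot apex, petiole, and separately from terminal and lateral leaflets. Every plant was 40 days old and was raised in soil under 16 h of light at 70% humidity and 22 °C. Whether mutant and WT plants shared a background or a harvest is not given in the sources used here, so either of these and the mutation cannot be told apart.

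Class I KNOX proteins are homeodomain transcription factors that keep cells of the shoot meristem from differentiating, in part by raising cytokinin and lowering gibberellin activity. In most simple-leaved plants their genes are switched off where a leaf starts, and in many compound-leaved plants, such as tomato and Cardamine hirsuta, they come on again in the leaf primordium and prolong the period in which leaflets form. In the legume clade of pea and Medicago, homologues of LEAFY take over this role, and peanut lies outside that clade.

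Levels are given as deposited, in FPKM (fragments per kilobase of transcript and per 1000000 mapped fragments), a unit that allows levels of different genes to be compared. The depth behind the values is not given in the sources used here, and the spacing of low values puts it, roughly, at 17.96 to 19.2 M fragments per library. All adjusted p-values of genes are from limma with Benjamini-Hochberg adjustment over the 39031 genes that reached 1 FPKM in 3 or more libraries, and changes are on the log2(FPKM + 1) scale, which understates changes of low genes. The labelled tissues differed in their markers. Summed levels of 33 small-subunit Rubisco and chlorophyll a-b binding genes, which mark leaf blade, were 6131 to 6347 FPKM in the mutant apex, 5520 to 5864 in the WT apex, 9195 to 9204 in the petiole and 21620 to 27967 in the leaflets. In both apex groups, most of the summed level of the meristem list came from SBH1 genes, which are class I KNOX genes themselves. The gene named protein WUSCHEL (arahy.RQ3232.1), the organizer factor of the stem cell niche, was at 0, 0.27 and 0 FPKM in the mutant apex and at 0, 0.07 and 0 FPKM in the WT apex.

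The A subgenome (chromosomes 1 to 10) holds 3 of the genes and the B subgenome (chromosomes 11 to 20) holds 2. In the coordinates of the Tifrunner assembly that the gene identifiers name (gnm1), arahy.00W5AZ.1 lies at chromosome 5, 103109682 to 103115728. arahy.0VJ2KM.1 lies at chromosome 6, 111953664 to 111965283, and arahy.JCQF9U.1 at chromosome 8, 17312844 to 17316649. On the B side, arahy.A8JEVC.1 lies at chromosome 16, 150935770 to 150946553, and arahy.FU8PR5.1 at chromosome 17, 133734915 to 133739337. All 5 are on the plus strand with 1 transcript each. The transcript of arahy.00W5AZ.1 has 797 bases, against 1553 to 1759 bases for the others, so it is listed as much shorter. The authors' transcription factor column places arahy.0VJ2KM.1 and arahy.A8JEVC.1 in the homeobox family and is blank for the other 3.

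The mutant apex carried more transcript of 4 of the 5 genes than the WT apex, and the remaining gene, arahy.00W5AZ.1, was at about the same level in both. The chromosome 6 gene arahy.0VJ2KM.1 was at 51.0, 57.74 and 54.17 FPKM in the mutant apex, against 26.57, 24.5 and 25.25 FPKM in the WT apex. Every mutant library lay far above every WT library. The group means were 54.3 ± 3.37 FPKM in the mutant apex and 25.4 ± 1.05 FPKM in the WT apex (SD, n = 3 each), a ratio of 2.13. On the log2(FPKM + 1) scale the change was 1.06 (SE 0.08, limma adjusted p = 8.26e-08), and 191 of the tested genes (0.489%) had a larger rise.

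The chromosome 16 gene arahy.A8JEVC.1 had the highest level of the 5 in both apices. It was at 70.02, 68.97 and 68.39 FPKM in the mutant apex, against 48.62, 46.94 and 51.43 FPKM in the WT apex. The groups did not overlap, but the step was smaller than for its chromosome 6 counterpart. Means were 69.1 ± 0.826 FPKM in the mutant apex and 49.0 ± 2.27 FPKM in the WT apex (SD, n = 3 each), a ratio of 1.41. The log2 change was 0.49 (SE 0.06, limma adjusted p = 1.12e-05), and 5.78% of tested genes had a larger rise.

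The chromosome 8 gene arahy.JCQF9U.1 was at 25.82, 25.51 and 23.36 FPKM in the mutant apex, against 14.08, 13.2 and 13.63 FPKM in the WT apex. Its lowest mutant library exceeded its highest WT library by a wide margin. The log2 change was 0.82 (SE 0.08, limma adjusted p = 1.25e-06), the ratio of means 1.83, and 1.37% of tested genes had a larger rise. The chromosome 17 gene arahy.FU8PR5.1 was at 16.25, 16.0 and 15.9 FPKM in the mutant apex, against 11.36, 9.63 and 10.04 FPKM in the WT apex. Again the groups did not overlap. The log2 change was 0.59 (SE 0.09, limma adjusted p = 0.000161) and the ratio 1.55, and with a pseudocount of 0.1 in place of 1 this gene was no longer called (0.63, limma adjusted p = 0.0972).

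The chromosome 5 gene arahy.00W5AZ.1 did not separate the genotypes. It was at 8.1, 8.12 and 7.14 FPKM in the mutant apex, against 8.2, 7.5 and 8.2 FPKM in the WT apex, so the libraries of the groups were interleaved. Means were 7.79 ± 0.56 FPKM in the mutant apex and 7.97 ± 0.404 FPKM in the WT apex (SD, n = 3 each). The log2 change was -0.03 (SE 0.08, limma adjusted p = 0.812), and 67.1% of tested genes had a larger value. Its change was not compared by a test with those of the other 4 genes.

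**Figure D1:**
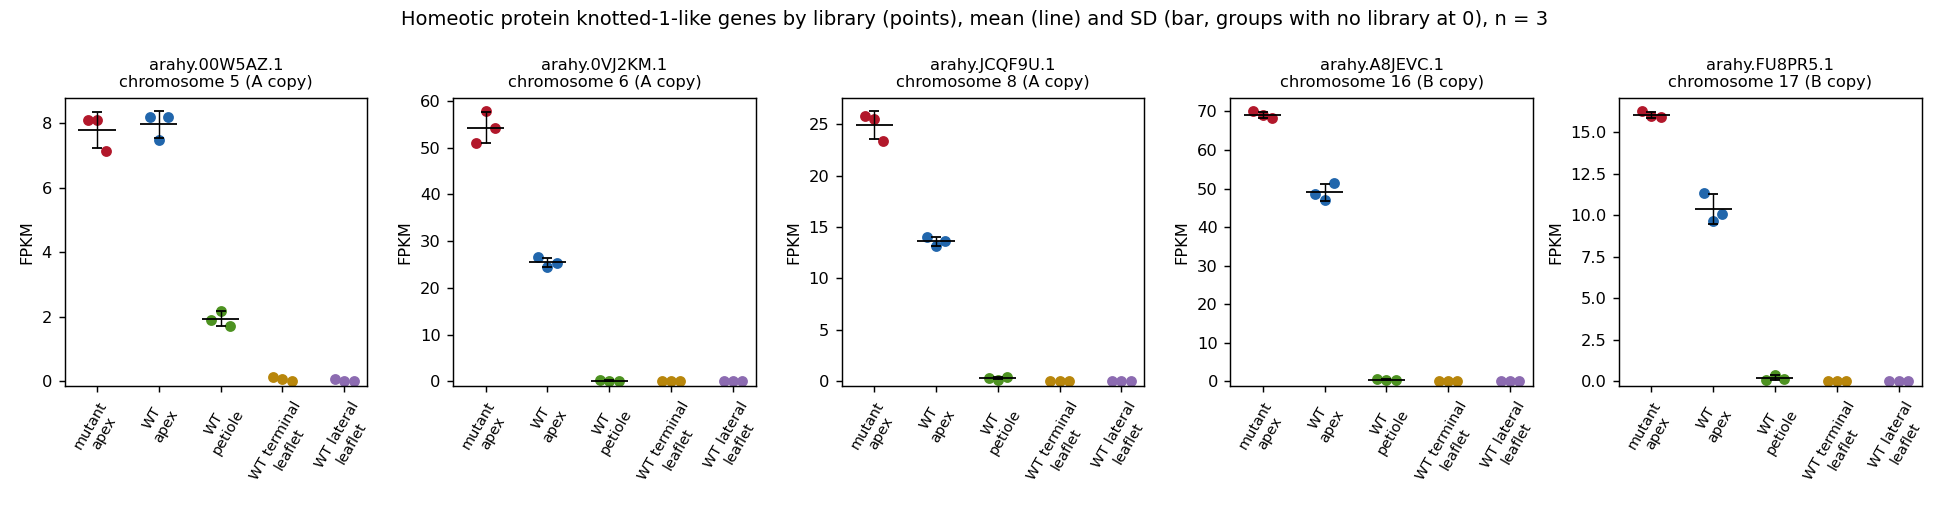
Level (FPKM, linear axes of different range) of each homeotic protein knotted-1-like gene in the 15 libraries; points are libraries, lines are means and bars are SDs of the 3 libraries, drawn only for groups with no library at 0. In 4 panels the mutant apex lies above the WT apex, while arahy.00W5AZ.1 is near 8 FPKM in both and is the gene with a visible level in the petiole.

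Thus 4 of the 5 genes were called higher in the mutant apex and 0 lower. Among all tested genes 35.6% were called, 23.7% higher and 11.9% lower, so rises were common in this comparison. The median change of the 5 genes was 0.59, against 0.07 for all tested genes. Libraries did not overlap, with the mutant higher, for 4 of the 5 genes and for 30.1% of tested genes. The authors' deposited table gives log2 ratios of mutant over WT apex of 1.09 for arahy.0VJ2KM.1, 0.87 for arahy.JCQF9U.1, 0.63 for arahy.FU8PR5.1, 0.50 for arahy.A8JEVC.1 and -0.03 for arahy.00W5AZ.1. In bulk tissue a larger share of expressing cells and more RNA per cell cannot be told apart. The leaf blade list, with 18 of 32 tested genes called higher and 2 lower, and the SBH1 genes of the meristem list also moved between the apices, and their part in the result was not tested. Of the meristem list, summed levels were 84.1 to 88.2 FPKM in the mutant apex and 56.7 to 58.6 FPKM in the WT apex, with 5 of 9 tested genes called higher (3 with a pseudocount of 0.1) and 0 lower. Summed secondary wall genes were at 42.1 to 43.3 FPKM in the mutant apex and 38.8 to 41.5 FPKM in the WT apex (2 higher and 1 lower of 16, or 2 and 4 after quantile normalization). Summed floral organ genes were at 164 FPKM in all mutant libraries and at 151 to 159 FPKM in the WT apex (8 higher and 3 lower of 32). The same list was at 133 to 137 FPKM in the petiole. It was at 161 to 164 FPKM in the terminal and 160 to 166 FPKM in the lateral leaflet. The list therefore did not set the apices apart from leaf tissue, and its sum is no measure of floral organs.

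Across WT tissues the 5 genes marked the apex and were close to absent from leaflets, with arahy.00W5AZ.1 as the gene that also had a clear level in the petiole. In the petiole, arahy.00W5AZ.1 was at 1.9, 2.19 and 1.73 FPKM, which is 24.4% of its WT apex mean. In the terminal leaflet it was at 0.13, 0.07 and 0 FPKM and in the lateral leaflet at 0.07, 0 and 0 FPKM. A sequenced fragment is worth about 0.0686 FPKM for this short transcript, so the leaflet values are those of 0 to 2 fragments. Its order of levels was therefore apex, petiole, leaflets, with no overlap between these.

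The other 4 genes had only traces in the petiole. arahy.A8JEVC.1 was at 0.49, 0.39 and 0.38 FPKM there, 0.857% of its WT apex mean. arahy.JCQF9U.1 was at 0.36, 0.18 and 0.43 FPKM (2.37%), and arahy.FU8PR5.1 at 0.09, 0.4 and 0.14 FPKM (2.03%). These are low but were above every leaflet library of the same gene. arahy.0VJ2KM.1 was at 0.3, 0.09 and 0.11 FPKM in the petiole, 0.655% of its WT apex mean. In the 6 leaflet libraries arahy.0VJ2KM.1 did not exceed 0.06 FPKM, arahy.A8JEVC.1 and arahy.FU8PR5.1 did not exceed 0.03 FPKM, and arahy.JCQF9U.1 was listed at 0 in all 6. Values this small are those of a few fragments at most, and levels between the leaflet types could not be told apart at this depth.

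All 5 genes were called higher in the WT apex than in the leaflets, in a comparison in which 79.6% of tested genes were called, 35.3% higher and 44.3% lower. For 4 of the 5 genes the apex libraries alone carried them past the filter on low values, so this count had to come out high and is not support. On the log2(FPKM + 1) scale the differences ran from 3.1 for arahy.00W5AZ.1 (limma adjusted p = 8.34e-15) to 5.63 for arahy.A8JEVC.1 (limma adjusted p = 2.76e-19). All 5 were also called higher in the WT apex than in the petiole (54.7% of tested genes called, 27.5% higher), and the same 4 genes passed the filter through the apex alone, so this count is no support either. There the differences were 1.61 for arahy.00W5AZ.1 (SE 0.08, limma adjusted p = 5.56e-10) and 3.23 to 5.14 for the other 4.

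In the petiole against the leaflets all 5 genes were called higher, in a comparison with 74.8% of tested genes called, 30.8% higher and 44.1% lower. The difference was 1.49 for arahy.00W5AZ.1 (SE 0.07, limma adjusted p = 6.77e-11). It was 0.49 for arahy.A8JEVC.1, 0.4 for arahy.JCQF9U.1, 0.26 for arahy.FU8PR5.1 and 0.19 for arahy.0VJ2KM.1, which are small steps between values below 0.5 FPKM. The calls of the last pair each rested on a petiole library. Without petiole replicate 1 that of arahy.0VJ2KM.1 was 0.11 (limma adjusted p = 0.142), and without petiole replicate 2 that of arahy.FU8PR5.1 was 0.15 (limma adjusted p = 0.0744). Between the terminal and the lateral leaflet 0 of the 5 genes were called by limma, and 0 had an unadjusted p under 0.05, against 13.1% of tested genes called.

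Peanut is an allotetraploid, so each A gene normally has a B counterpart (homeolog) of near-identical sequence, and short reads of such copies can be assigned to the wrong one. Chromosome numbers pair arahy.0VJ2KM.1 (chromosome 6) with arahy.A8JEVC.1 (chromosome 16). In the apex arahy.A8JEVC.1 was the more abundant of the pair in every library of both genotypes. Which of the genes is called the A copy depends on the assembly. In RefSeq's gene table of a later Tifrunner assembly (gnm2), the records matched to arahy.0VJ2KM.1 and arahy.A8JEVC.1 (LOC112697705 and LOC112755995) stand on each other's chromosome, as do 20 of 21 and 5 of 6 of their matched neighbours. Here A and B follow the authors' table. In these terms the A copy, arahy.0VJ2KM.1, made up 42.1, 45.6 and 44.2% of the summed level in the mutant apex, against 35.3, 34.3 and 32.9% in the WT apex. The shares did not overlap, so the balance lay closer to equality in the mutant apex. Means were 44.0 ± 1.76% in the mutant apex and 34.2 ± 1.21% in the WT apex (SD, n = 3 each). With the labels of the later assembly the A copy would be arahy.A8JEVC.1, at 56.0% in the mutant apex and 65.8% in the WT apex, and the A share would be the lower in the mutant. The log2 ratio of A over B copy averaged -0.34 in the mutant apex and -0.92 in the WT apex, a difference of 0.57 with an exact two-sided permutation p of 0.1, which is the smallest that 3 against 3 libraries allow. The summed level of the pair was 123 ± 2.94 FPKM in the mutant apex and 74.4 ± 2.7 FPKM in the WT apex. With the copies summed before the fit, which removes any exchange of reads within the pair, the rise was 0.72 (SE 0.07, limma adjusted p = 1.72e-06).

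The genes on chromosomes 8 and 17 were paired after their values were seen, because the genes around them match, and not by chromosome number. Of the 26 product names found among the 40 genes nearest to arahy.JCQF9U.1, 18 recur in the best-matching window of 41 genes elsewhere in the genome, which is the window on chromosome 17 that holds arahy.FU8PR5.1. The best window on any further chromosome shared 8, and the median over 54573 windows was 0. In this pair the A copy was the more abundant in every apex library. It made up 61.4, 61.5 and 59.5% of the summed level in the mutant apex, against 55.3, 57.8 and 57.6% in the WT apex. The shares did not overlap, and that of arahy.JCQF9U.1 was the higher in the mutant. Log2 ratios averaged 0.6 in the mutant apex and 0.37 in the WT apex, a difference of 0.23 (exact two-sided permutation p = 0.1, the smallest possible). The summed level was 40.9 ± 1.49 FPKM in the mutant apex and 24.0 ± 1.33 FPKM in the WT apex, and the rise of the sum was 0.75 (SE 0.06, limma adjusted p = 4.66e-07).

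**Figure D2:**
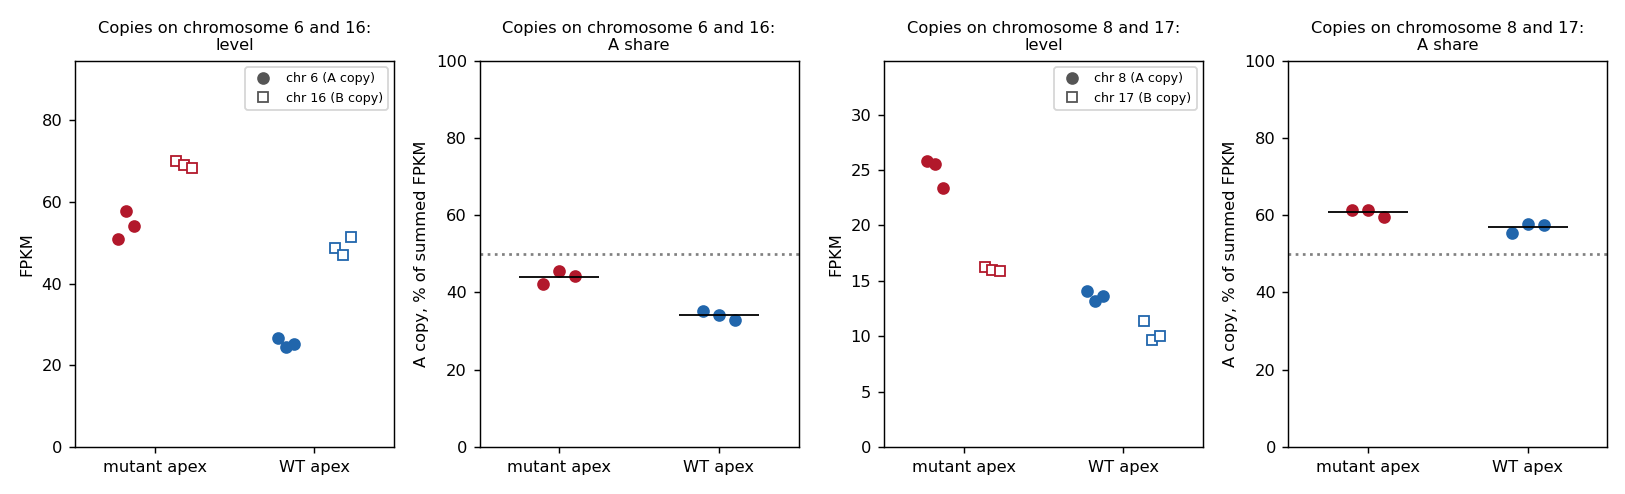
Level (FPKM) of the A copies (filled circles) and B copies (open squares), named as in the authors' table, and the A copy's share (%) of their summed level, in each mutant and WT apex library of the chromosome 6 and 16 pair and the chromosome 8 and 17 pair; lines are means of 3 libraries and the dotted line marks equal shares. The A share of the first pair is 42.1 to 45.6% in the mutant and 32.9 to 35.3% in WT, and that of the second is 59.5 to 61.5% in the mutant and 55.3 to 57.8% in WT.

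Over all 15 libraries the chromosome 6 copy was below the chromosome 16 copy by 0.3 on average on the log2(FPKM + 1) scale (exact two-sided sign-flip permutation p = 0.00317). With a pseudocount of 0.1 the value was -0.42 (exact two-sided sign-flip permutation p = 0.0193). The A copy was the higher in 3 of the 15 libraries, all leaflets, where both copies were near 0. For the chromosome 8 and 17 pair the A copy was above by 0.22 (exact two-sided sign-flip permutation p = 0.00977). It was the higher in 8 of 15 libraries. Ties are among the rest, with both copies at 0 in every terminal leaflet library and in lateral leaflet replicates 1 and 3. With a pseudocount of 0.1 the difference became 0.29 (exact two-sided sign-flip permutation p = 0.0645). Libraries of a tissue share that tissue, so these p-values speak for the set of libraries and not for each tissue. Adjusted by Benjamini-Hochberg over the 8 permutation tests run on copy ratios, the p-values were 0.0254 for the first pair and 0.0381 for the second, and those of the mutant against the WT apex were 0.114 for each pair. In the RefSeq table the records matched to the other 3 genes stand on the same chromosome as in the authors' table, as do 13 of 17 matched neighbours of arahy.00W5AZ.1 and 8 of 8 for each of arahy.JCQF9U.1 and arahy.FU8PR5.1.

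The chromosome 5 gene arahy.00W5AZ.1 has no partner of the same product name. Of 28 product names around it, 18 recur in a window on chromosome 15, from 138160300 to 140044707, and the next best chromosome shared 4. The class I KNOX gene in that window is arahy.S28ZE3.1, which the table names homeobox protein knotted-1-like 1. arahy.S28ZE3.1 was at 7.18, 6.52 and 6.61 FPKM in the mutant apex, against 6.39, 8.39 and 7.35 FPKM in the WT apex. Like arahy.00W5AZ.1 it showed no separation of the genotypes (log2 change -0.10, SE 0.11, limma adjusted p = 0.489). In the petiole arahy.S28ZE3.1 was at 6.96, 8.04 and 6.99 FPKM, within the range of its own WT apex libraries. The difference of WT apex and petiole was 0.00 (SE 0.11, limma adjusted p = 0.981) for arahy.S28ZE3.1 and 1.61 for arahy.00W5AZ.1. The chromosome 5 gene was thus near its chromosome 15 neighbourhood match in both apices, and every petiole library of the match was above every petiole library of arahy.00W5AZ.1. In the leaflets arahy.S28ZE3.1 reached at most 0.31 FPKM.

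Around the members that rose, most neighbouring genes had smaller changes between the apices, with some called in each direction. Among all tested genes 23.7% were called higher and 11.9% lower. Only 0.489 to 5.78% of all tested genes rose more than these members, so a small number of larger neighbours is no local result. Among 32 tested neighbours of arahy.0VJ2KM.1 the median log2 change was 0.09 and 1 neighbour rose more than the gene itself, while 7 neighbours were called higher and 6 lower. The genes at +1 and +2 from it had changes of 0.49 and 0.4. Among 27 neighbours of arahy.JCQF9U.1 the median was 0.04, 0 rose more, and 3 were called higher and 2 lower. For arahy.A8JEVC.1 the median was 0.08 and for arahy.FU8PR5.1 it was -0.02, each over 32 neighbours of which 1 had a larger value. Of these neighbours 6 were called higher and 3 lower around arahy.A8JEVC.1, and 2 higher and 5 lower around arahy.FU8PR5.1. The gene at +1 from arahy.A8JEVC.1, arahy.QD22BA.1, had the same change as it, 0.49. arahy.00W5AZ.1 lay amid its surroundings, with a neighbour median of 0.1, 19 of 30 neighbours above it, and 8 neighbours called higher and 3 lower.

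**Figure D3:**
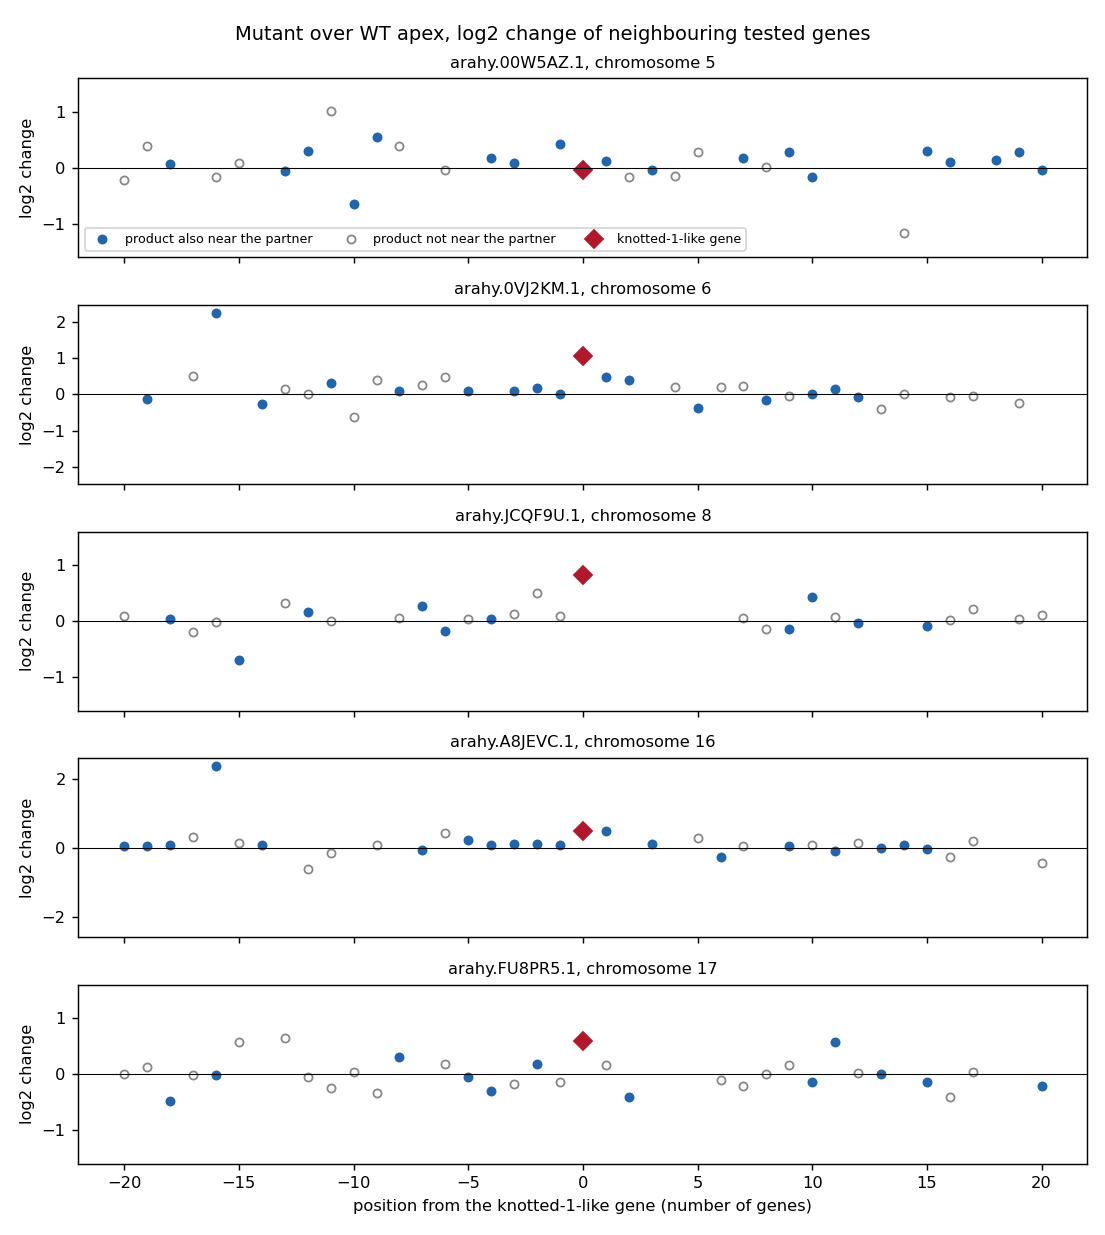
Log2 change of mutant over WT apex (log2(FPKM + 1) scale) of each homeotic protein knotted-1-like gene (diamond, position 0) and of its tested neighbours, by gene order up to 20 genes to each side; filled points are neighbours whose product name recurs around the matched window on the other chromosome, and the vertical ranges differ between panels. The 4 genes that rose stand above a neighbour median of -0.02 to 0.09, with 0 or 1 neighbour higher.

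The 5 genes supplied a large part of the class I KNOX transcript of the apex. The table holds 19 class I KNOX genes by product name, and their levels summed to 356 ± 1.15 FPKM in the mutant apex, 243 ± 7.23 in the WT apex and 30.1 ± 1.17 in the petiole (SD, n = 3 each). The 5 members made up 172 ± 3.61 FPKM of this in the mutant apex and 107 ± 4.04 FPKM in the WT apex. Their share was 48.2, 49.4 and 47.6% in the mutant apex, against 44.0, 43.3 and 43.8% in the WT apex, without overlap. In the petiole it was 9.68 to 10.6%, and arahy.00W5AZ.1 supplied most of that.

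Among the 19 genes arahy.A8JEVC.1 ranked highest in both apices. arahy.0VJ2KM.1 ranked 2 in the mutant apex, and 3 in the WT apex behind the LET6 gene arahy.EUX0L6.1 (28.6 ± 0.158 FPKM there). Since the highest WT library of arahy.0VJ2KM.1 was at 26.57 FPKM, these 2 genes exchanged places between the genotypes. arahy.00W5AZ.1 ranked 14 in the mutant apex and 11 in the WT apex, but 3 in the petiole. There it followed arahy.U5Q1QL.1 (18.4 ± 1.22 FPKM) and arahy.S28ZE3.1 (7.33 ± 0.615 FPKM), both named knotted-1-like 1.

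**Figure D4:**
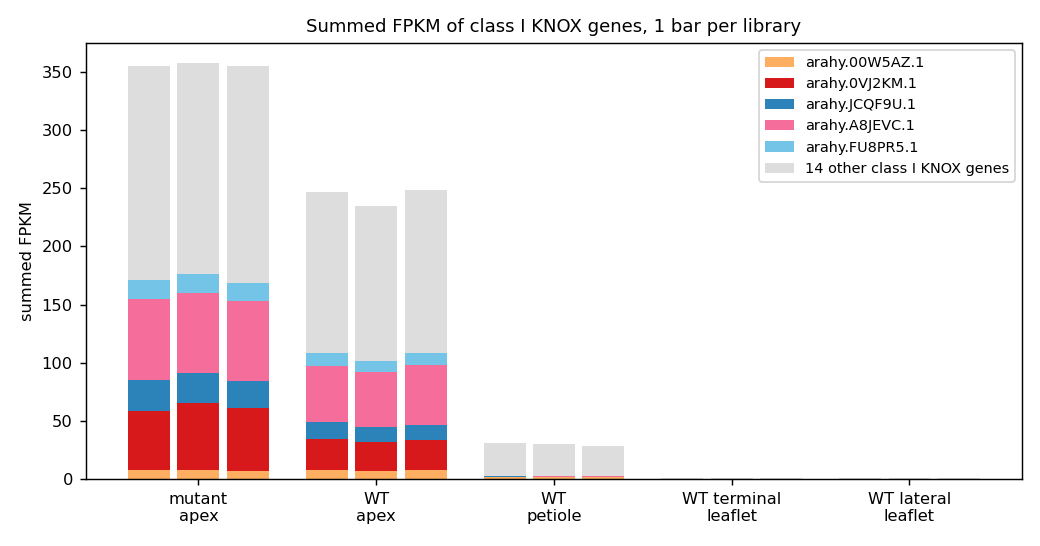
Summed level (FPKM) of the 19 class I KNOX genes in each library, stacked by homeotic protein knotted-1-like gene (colours) and the other 14 genes (grey). The bars are 355 to 357 FPKM high in the mutant apex, 235 to 248 in the WT apex, 28.8 to 31.0 in the petiole and at most 1.42 in the leaflets.

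The rise in the mutant apex was not confined to the 5 genes. Of 13 other tested class I KNOX genes, 7 (53.8%) were called higher and 0 lower, against 23.7% and 11.9% of all tested genes, and their median change was 0.39 on the log2 scale. With a pseudocount of 0.1 the count was 3 higher and 0 lower, where 8856 of all 39031 tested genes were higher and 4305 lower. The share of rises was then close to the background, and the median change was 0.42, against 0.09 for all tested genes. The SBH1-like genes arahy.EP4LC1.1 and arahy.VD5ZG0.1, relatives of a soybean apex gene, each rose by 0.69 (limma adjusted p = 2.32e-06 for arahy.EP4LC1.1 and 5.93e-07 for arahy.VD5ZG0.1). The LET6 gene arahy.EUX0L6.1, named for a tomato meristem gene, was at 32.2 ± 0.927 FPKM in the mutant apex and 28.6 ± 0.158 FPKM in the WT apex, a change of 0.17 (limma adjusted p = 0.0297). The other LET6 gene, arahy.D6DE6U.1, had a value of 0.16 (limma adjusted p = 0.0894) and was not called. arahy.0VJ2KM.1 and arahy.JCQF9U.1 had the largest 2 estimates among the 18 tested class I genes.

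**Figure D5:**
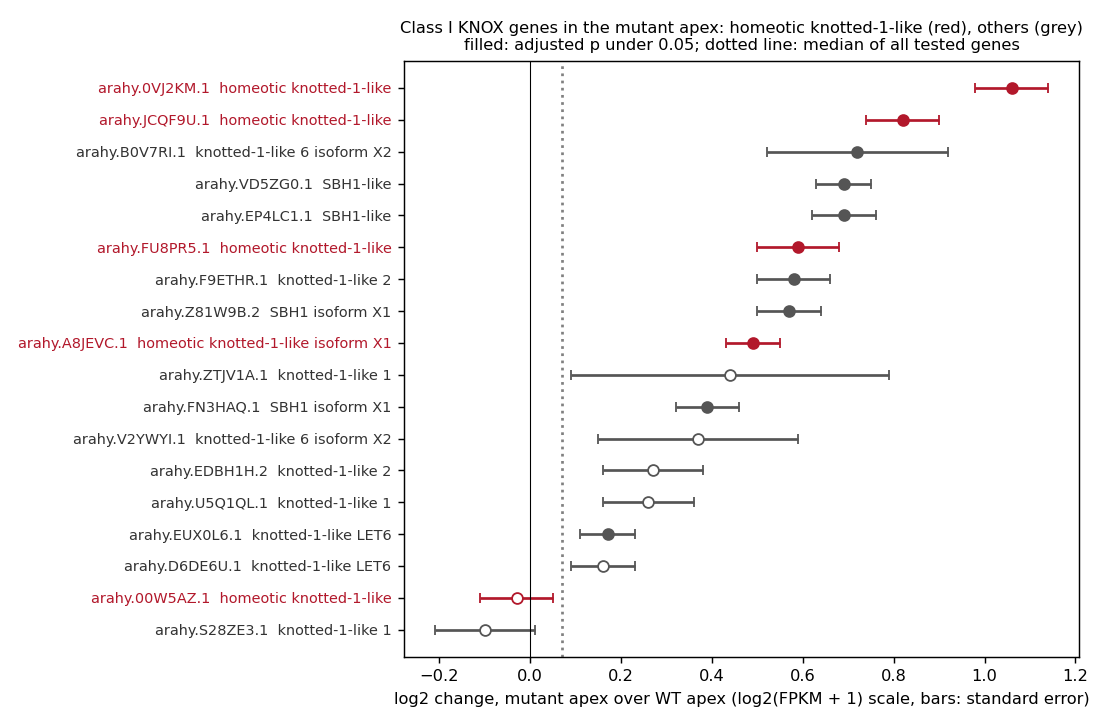
Log2 change of mutant over WT apex (log2(FPKM + 1) scale, bars are standard errors of the limma fit) of the 18 tested class I KNOX genes, with the homeotic protein knotted-1-like genes in red. Filled points passed an adjusted p of 0.05; the red points run from -0.03 for arahy.00W5AZ.1 to 1.06 for arahy.0VJ2KM.1, and the dotted line is the median of all tested genes, 0.07.

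Class II KNOX genes, which in Arabidopsis promote differentiation and act against class I genes, were called higher for 0 of 6 and lower for 2 of 6 in the mutant apex. Among all tested genes 23.7% were called higher and 11.9% lower there. arahy.ZFW2W7.1 (knotted-1-like 4) was at 3.8 ± 0.248 FPKM in the mutant apex and 9.35 ± 1.19 FPKM in the WT apex (SD, n = 3 each), a change of -1.10 (limma adjusted p = 9.43e-08). arahy.TRGC7G.1 (knotted-1-like 3) was at 9.95 ± 0.93 FPKM in the mutant apex and 10.2 ± 0.602 FPKM in the WT apex and was not called. All 6 were called lower in the WT apex than in the leaflets, against 44.3% of all tested genes. The homeotic protein knotted-1-like genes were called the other way, but the filter on low values made that count high, so the contrast of calls is no support.

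BELL homeodomain proteins pair with KNOX proteins to bind DNA, and 5 of 26 (19.2%) were called higher and 6 (23.1%) lower in the mutant apex (4 and 8 after quantile normalization, 3 and 5 with a pseudocount of 0.1). Beside the 23.7% higher and 11.9% lower among all tested genes, the share of rises is close to the background. The 2 of highest mean over the 15 libraries were arahy.69CRNN.3 and arahy.DWSH38.1 (both BEL1-like homeodomain protein 4). They changed by -0.35 (limma adjusted p = 0.0111) and -0.47 (limma adjusted p = 0.000276) in the mutant apex. Both were highest in the leaflets, with group means of 27.6 to 31.6 FPKM, against 10.6 and 10.4 FPKM in the WT apex. Of 13 genes of the repressor list, which holds AS1, a MYB protein that keeps class I KNOX genes silent in leaves, and OVATE family proteins, 1 (7.69%) was higher and 4 (30.8%) lower. The AS1 gene arahy.Z9PFJZ.1 was at 94.1 ± 3.57 FPKM in the mutant apex and 84.3 ± 3.79 FPKM in the WT apex, a change of 0.16 (limma adjusted p = 0.013). The other abundant AS1 gene, arahy.2DN1X0.1, had a value of 0.08 (limma adjusted p = 0.199) and was not called.

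Of genes that act in the hormone pathways downstream of KNOX proteins, the cytokinin response regulators (type A and others) had the most calls. Of 24 tested, 15 (62.5%) were called higher and 1 lower, against 23.7% higher among all tested genes. Their median change was 0.31. After quantile normalization 12 were higher and 2 lower, and with a pseudocount of 0.1 the counts were 13 and 1. ARR5, a type-A regulator induced by cytokinin, was represented by arahy.G26LFA.1 at 17.8 ± 0.261 FPKM in the mutant apex and 10.3 ± 0.457 FPKM in the WT apex, a change of 0.73 (limma adjusted p = 2.66e-07). The ORR9-like regulator arahy.FQ5ZUR.1 changed by 0.87 (limma adjusted p = 4.05e-08). Of cytokinin synthesis genes 4 of 15 (26.7%) were higher and 1 lower, and of cytokinin breakdown genes 4 of 17 (23.5%) were higher and 0 lower, so the shares of rises were near the background. arahy.TW77AW.1, an enzyme of the LOG type that releases active cytokinin, changed by 0.68 (limma adjusted p = 5.21e-06), and a further LOG-type gene, arahy.0J0X0V.1, by 0.21 (limma adjusted p = 0.00884). The 2 breakdown genes of highest mean over the 15 libraries were not called, with values of 0.19 for arahy.SZ0H4I.1 and 0.02 for arahy.1E8W48.1. Gibberellin synthesis genes, which class I KNOX proteins repress in tobacco and Arabidopsis, had 4 of 10 (40.0%) higher and 0 lower. arahy.QV02Z8.1 (gibberellin 20 oxidase 2) was at 11.4 ± 0.259 FPKM in the mutant apex and 7.64 ± 0.797 FPKM in the WT apex, a change of 0.53 (limma adjusted p = 6.31e-05), and arahy.K8MVYG.1 (gibberellin 3-beta-dioxygenase 1-like) changed by 0.51 (limma adjusted p = 0.00167). Gibberellin breakdown genes, which class I KNOX proteins activate in maize and Arabidopsis, had 4 of 12 (33.3%) higher and 2 lower, which with a pseudocount of 0.1 turned to 1 higher and 2 lower. The 2 of highest mean over the 15 libraries are both named gibberellin 2-beta-dioxygenase 1. Of these, arahy.EU49LP.1 changed by 0.27 (limma adjusted p = 0.00277). The other, arahy.QLS93X.1, had a value of 0.07 (limma adjusted p = 0.571) and was not called.

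Boundary and leaf complexity genes include CUP-SHAPED COTYLEDON genes, which separate leaflets and organs. Of 11 tested genes of this list, 6 (54.5%) were called higher and 0 lower, against 23.7% and 11.9% of all tested genes. With a pseudocount of 0.1 the counts were 0 and 0, and after quantile normalization they were 4 and 1. The CUP-SHAPED COTYLEDON 2-like gene arahy.B9XEKF.1 was at 10.2 ± 0.446 FPKM in the mutant apex and 7.4 ± 0.257 FPKM in the WT apex, a change of 0.42 (limma adjusted p = 0.000566), and arahy.XB6K25.1, of the same product name, changed by 0.27 (limma adjusted p = 0.0107). All 11 were called higher in the WT apex than in the leaflets and than in the petiole. Among all tested genes 35.3% were called higher against the leaflets and 27.5% against the petiole. Summed levels of the list did not exceed 1.24 FPKM in the leaflets and 1.15 FPKM in the petiole. The apex libraries thus carried nearly all of these genes past the filter on low values. As for the homeotic protein knotted-1-like genes, these counts are therefore no support.

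Over the 15 libraries, 4 members ran nearly parallel, with Pearson correlations of 0.996 to 0.998 between any 2 of them on the log2(FPKM + 1) scale. arahy.00W5AZ.1 correlated with them at 0.919 to 0.939. These values describe 15 libraries that fall into apex and other tissue, so they are dominated by that step. Among 25476 genes with at least 5 FPKM in their highest group, the profile most like that of arahy.A8JEVC.1, the member of highest mean, belonged to arahy.XB6K25.1 (chromosome 18, CUP-SHAPED COTYLEDON 2-like), at a correlation of 0.9993. It was at 9.52, 8.96 and 9.77 FPKM in the mutant apex, against 7.86, 7.26 and 7.78 FPKM in the WT apex, and at most 0.35 FPKM elsewhere. The next were the miraculin-like genes arahy.20IV4T.1 (chromosome 15, 0.9993) and arahy.95ACYI.1 (chromosome 5, 0.9988). They were followed by arahy.0B8THM.1 (pathogenesis-related protein 1C-like, 0.9987) and arahy.Z151WT.1 (pathogenesis-related protein 1, 0.9986), both on chromosome 10.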

How the data were processed

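The authors deposited FPKM values per gene, per the file headers, with coordinates, product names and transcript lengths. Their own group comparisons were deposited as log2 ratios with p-values and q-values, per the file headers, and are quoted only where the authors' deposited table is named. Which aligner and quantifier made the values is not given in the sources used here. An Arabidopsis build stands in the submitters' processing notes, while gene identifiers are those of peanut. Leaflet columns, abbreviated unlike the titles, were matched by tissue name.

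The plan named limma on log2 values, and a count test only in case the deposited values were counts. The values are FPKM, so limma was used. On log2(FPKM + 1) values of the 39031 genes that reached 1 FPKM in 3 or more libraries, limma 3.58.1 (R 4.3.3) was run with 1 mean for each group of the 15 libraries and with robust, trended empirical Bayes moderation. Calls were made at an adjusted p under 0.05. Copy ratios were tested by exact permutation over libraries (Python 3.11.15, scipy 1.17.1). Neighbourhoods are 20 genes to each side, compared by product name with every window of 41 genes on other chromosomes. The fit was tested on simulated data, with changes put into the mutant apex for genes whose WT apex level was above the filter on low values. That test did not cover calls on near-absent petiole and leaflet values. Genes to name were every member, the 2 tested genes of highest mean in each pathway list (patterns on product names), and the 5 genes most correlated with the most abundant member. Other class I genes named were added after their values were seen. Members and lists were chosen with earlier results of these data known. Product names were blank for 868 rows.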

Additional observations from a re-analysis of the deposited data

Results flagged for a closer look

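In the leaflets all 4 paired copies were at or below 0.06 FPKM, so no leaflet balance was measured, and with a pseudocount of 1 the ratio of such values is near 0 by construction. The 3 tests that passed a p of 0.05 against the leaflets therefore describe the distance of an apex or petiole ratio from 0, and show no difference in copy balance between tissues. The log2 ratio of the chromosome 6 over the chromosome 16 copy was lower in the WT apex than in the leaflets by 0.93 (-0.93, means -0.92 in the WT apex and 0.01 in the leaflets), and lower in the petiole than in the leaflets by 0.3 (-0.3, means -0.29 in the petiole and 0.01 in the leaflets). The log2 ratio of the chromosome 8 over the chromosome 17 copy was higher in the WT apex than in the leaflets by 0.38 (means 0.37 in the WT apex and -0.01 in the leaflets). Each had an exact two-sided permutation p of 0.0238, the smallest that 3 against 6 libraries allow. With a pseudocount of 0.1 the petiole value of the chromosome 6 and 16 pair was -1.15, so its size is set by the pseudocount.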

How the results depend on the processing

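Alternatives were other pseudocounts, quantile normalization, libraries rescaled to an equal sum, no filter on low values, no trend and no robust fit, only the groups compared, each library left out, and, added after seeing the data, copies of a pair summed. For the mutant against the WT apex, 4 members were called, or 3 with a pseudocount of 0.1. Of 69 recomputed values of members, 67 kept their direction and their side of the threshold. Exceptions were arahy.FU8PR5.1 with a pseudocount of 0.1 (0.63, limma adjusted p = 0.0972) and arahy.00W5AZ.1, whose estimate near 0 turned to 0.02 (limma adjusted p = 0.873) without mutant apex replicate 3 (-0.07 to 0.02 over the libraries left out). For the other comparisons the exceptions were the 2 petiole calls given with their values. The cause of these was not tested. Leaving out an apex or petiole library gave A over B differences against the leaflets of -0.97 to -0.89 (apex) and -0.35 to -0.27 (petiole) for chromosomes 6 and 16, and 0.35 to 0.42 (apex) for chromosomes 8 and 17, each with an exact permutation p of 0.0714, the smallest that 2 against 6 libraries allow. The chromosome 8 and 17 difference over all libraries was 0.29 (exact sign-flip permutation p = 0.0645) with a pseudocount of 0.1.

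Of genes called between the apices, 9243 were higher and 4633 lower, against 6889 and 6112 after quantile normalization, which left 4 of 5 members called higher. That normalization moved the median of all genes in the petiole against the leaflets to 0.02, against -0.11 in the deposited values. With the replicate number as a block, 13529 genes were called between the apices (13876 without it) and the calls of members did not change. Deviations of same-numbered mutant and WT apex libraries from their group means correlated at -0.0258 to 0.0176. Between WT groups the range was -0.0551 to 0.0503. The values thus showed no pairing by number, but they do not tell whether same-numbered samples shared a plant or a harvest. Leaflet values of a few fragments limit what can be said of the members there.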
